A study of Mus musculus with 6 samples.

Results

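The immunoglobulin heavy variable (Ighv) segments of the mouse were followed in chronic stroke infarcts. They were taken as every gene in the count tables whose symbol starts with Ighv, which gave 185 of 46078 genes under 183 distinct symbols. All of them lie on mouse chromosome 12. The annotation lists 113 as variable genes, 70 as variable pseudogenes and 2 as other V-like genes.

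Bulk RNA sequencing was performed on brain tissue of wild type male C57BL/6J mice aged 3 months. Each mouse had undergone distal middle cerebral artery occlusion combined with hypoxia (DH), a model of ischemic stroke that injures the cortex of 1 hemisphere, and tissue was taken 7 weeks later. The infarct group held 3 samples of the lesion, and the contralateral group held 3 samples of the matching cortex of the uninjured hemisphere. Both groups thus shared the strain, sex, stroke and time, neither came from mice without a stroke, and the labels do not state that the 3 samples of a group came from separate mice, so p-values measure the spread between these samples.

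An antibody heavy chain is encoded by 1 V, 1 D and 1 J segment that a developing B cell joins in its DNA before a constant region. The V segments fall into families by sequence similarity, written as the number after Ighv, and a cell keeps its chosen segment through division and maturation into an antibody-secreting plasma cell. Ighv RNA thus marks B lineage cells. Cells of different clones can use the same V segment, so counts per segment do not identify clones. In bulk tissue a segment with many counts can come from many cells or from a few that make much RNA, and fewer cells of a type and less RNA per cell cannot be told apart.

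The 6 segments below lead the results that follow. *Ighv1-75*, *Ighv3-6* and *Ighv1-53* were among the 10 most abundant segments of all 3 infarcts, *Ighv1-69* was abundant in infarct 1, *Ighv1-18* led infarct 2 and *Ighv1-78* led infarct 3. Each line gives the last 294 bases of the exon that encodes the variable domain, with its GRCm38 position. The bases are from the GENCODE M21 transcripts and read 5' to 3' on the minus strand. Capitals mark bases that differ from the closest other Ighv segment.
Ighv1-75 (chr12:115833950-115834243): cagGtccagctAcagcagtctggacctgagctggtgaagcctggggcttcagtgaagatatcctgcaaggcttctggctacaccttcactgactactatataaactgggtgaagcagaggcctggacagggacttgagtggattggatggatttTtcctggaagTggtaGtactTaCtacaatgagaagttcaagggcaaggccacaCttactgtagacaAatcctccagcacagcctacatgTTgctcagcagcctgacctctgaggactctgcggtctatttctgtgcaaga
Ighv3-6 (chr12:114288152-114288445): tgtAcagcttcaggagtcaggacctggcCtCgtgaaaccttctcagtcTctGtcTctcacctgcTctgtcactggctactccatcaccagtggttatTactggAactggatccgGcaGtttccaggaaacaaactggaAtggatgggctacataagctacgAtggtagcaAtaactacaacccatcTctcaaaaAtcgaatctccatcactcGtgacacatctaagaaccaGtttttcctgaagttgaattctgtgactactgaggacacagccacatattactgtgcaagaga
Ighv1-53 (chr12:115158403-115158696): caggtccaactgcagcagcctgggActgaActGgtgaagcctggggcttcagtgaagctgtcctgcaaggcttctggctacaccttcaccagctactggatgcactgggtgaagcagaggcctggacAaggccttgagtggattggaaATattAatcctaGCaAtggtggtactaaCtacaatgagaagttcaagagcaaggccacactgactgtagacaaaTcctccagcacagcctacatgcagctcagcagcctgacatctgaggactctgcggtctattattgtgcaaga
Ighv1-69 (chr12:115623161-115623454): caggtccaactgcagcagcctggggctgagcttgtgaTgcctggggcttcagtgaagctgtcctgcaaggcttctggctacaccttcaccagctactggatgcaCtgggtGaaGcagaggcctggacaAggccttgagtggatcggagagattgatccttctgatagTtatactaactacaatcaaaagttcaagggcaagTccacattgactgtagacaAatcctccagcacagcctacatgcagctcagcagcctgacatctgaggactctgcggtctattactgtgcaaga
Ighv1-18 (chr12:114682632-114682925): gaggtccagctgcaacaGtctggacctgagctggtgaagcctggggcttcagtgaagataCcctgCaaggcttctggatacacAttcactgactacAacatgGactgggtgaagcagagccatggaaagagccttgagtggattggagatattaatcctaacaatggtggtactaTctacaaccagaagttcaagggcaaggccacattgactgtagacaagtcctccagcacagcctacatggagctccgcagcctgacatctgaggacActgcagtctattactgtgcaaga
Ighv1-78 (chr12:115868773-115869066): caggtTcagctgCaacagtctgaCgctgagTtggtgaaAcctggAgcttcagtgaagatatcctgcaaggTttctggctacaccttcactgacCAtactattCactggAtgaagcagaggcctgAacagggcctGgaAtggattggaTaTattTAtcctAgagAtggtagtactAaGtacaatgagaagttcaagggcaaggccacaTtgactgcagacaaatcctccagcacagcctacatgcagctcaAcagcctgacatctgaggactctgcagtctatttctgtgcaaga
The closest other segment was *Ighv1-84* for *Ighv1-75*, with 12 edits (substitutions, insertions or deletions) over the printed bases, *Ighv3-1* for *Ighv3-6* with 20, and *Ighv1-72* for *Ighv1-53* with 12. *Ighv1-69* differed from *Ighv1-50* by 8 edits, *Ighv1-18* from *Ighv1-26* by 8, and *Ighv1-78* from *Ighv1-77* by 29. Of all windows of 75 bases, the read length, *Ighv1-75* shared 28.1% with another segment, *Ighv1-53* 17.0%, *Ighv1-69* 15.2% and *Ighv1-18* 10.9%, while *Ighv3-6* and *Ighv1-78* shared none. Only 4 of the 185 segments shared 50% or more of their windows, and these are *Ighv1-62-2*, *Ighv1-62-3*, *Ighv1-71* and *Ighv1-72*.

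The libraries held 11943570 to 19933962 counts on genes, and 65.7% to 73.4% of the tallied reads fell on genes. Markers of excitatory neurons summed to 303, 376 and 1075 counts scaled to a common library size (CPM) in infarcts 1 to 3 and to 3888 to 4138 CPM in the contralateral samples, and 4 of the 5 were called lower in infarcts. Infarct 3 thus held more neuronal RNA than the other two, and *Neurod6*, a neuronal transcription factor, had 611 counts there against 23 and 59. Markers of macrophages, leptomeninges and T cells were called higher in infarcts for 5 of 5, 5 of 5 and 6 of 6 tested genes. Over all tested genes the share called higher was 25.7%. The T cell marker *Cd2* was at 0 in every contralateral sample and passed the filter on low counts only through the infarcts.

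Ighv transcripts were abundant in infarcts and close to absent in contralateral cortex. Infarcts 1, 2 and 3 held 13484, 9090 and 1796 Ighv counts. Contralateral samples 1, 2 and 3 held 7, 2 and 24. As a share of gene counts, the infarcts reached 0.111% (95% Wilson interval 0.109% to 0.113%), 0.0727% (0.0712% to 0.0742%) and 0.0134% (0.0128% to 0.0140%). All intervals here cover counting error only. The mean level was 621 ± 477 CPM (SD, n = 3) in infarcts and 0.904 ± 1.14 CPM (SD, n = 3) in contralateral cortex. The groups did not overlap, since the lowest infarct stood 55.3-fold above the highest contralateral sample, and the infarcts differed widely among themselves. With 3 against 3 samples an exact permutation test cannot go below p = 0.1, so no p is given for the sum.

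The spread between infarcts was larger for Ighv than for a B cell surface gene. Infarct 1 held 8.76-fold and infarct 2 held 5.45-fold the Ighv level of infarct 3. For *Ms4a1*, which encodes CD20 on B cells and is lost in plasma cells, the same ratios were 2.87 and 1.24. The count of Ighv per *Ms4a1* count was 6.54, 9.39 and 2.14 in infarcts 1 to 3. Per count of *Jchain*, the joining chain of secreted IgM and IgA, it was 0.536, 0.923 and 0.758, so Ighv followed *Jchain* more closely than *Ms4a1* over these 3 libraries. The part of the higher neuronal RNA of infarct 3 in its lower Ighv level was not tested.

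Markers of the B lineage differed in the same direction. All 12 B cell markers and 9 of 9 tested plasma cell markers were called higher in infarcts. Summed plasma cell markers were 2740, 1310 and 602 CPM in infarcts 1 to 3 and 99.9 to 120 CPM in contralateral samples. Of these sums, *Jchain* alone held 2003, 723 and 162 CPM in infarcts 1 to 3. *Xbp1*, another of the markers, held 105, 92.7 and 108 CPM in contralateral samples 1 to 3, most of the sum there. *Tnfrsf17*, a plasma cell marker that was not tested, had 40, 12 and 2 counts in infarcts against 3, 1 and 0, and the groups overlapped. Of the 7 germinal center genes only 3 passed the filter, and all 3 were called higher. None of the 5 genes of V(D)J joining and the pre-B receptor passed the filter, and *Rag2*, *Vpreb1* and *Igll1* were at 0 in every library. *Rag1* had 2, 14 and 9 counts in infarcts and 6, 5 and 1 in contralateral samples, and *Dntt* had 5, 7 and 6 against 4, 0 and 0. Granulocyte precursor genes of the marrow summed to 3.35 to 8.08 CPM and red cell genes to 8.08 to 30.2 CPM in infarcts. In contralateral samples these sums were 0.260 to 1.11 and 0.846 to 4.28 CPM. Of the 7 granulocyte precursor genes 2 were tested, and both were called higher, *Ngp* with 13, 38 and 18 counts against 0, 0 and 3 and *Ltf*, lactoferrin, with 13, 53 and 19 against 0, 1 and 3. *Elane*, another of the 7, was at 0 in every library. Of the 5 red cell genes 2 were tested and both were called higher, and the part of these cells in the Ighv level was not tested.

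Detection followed the annotation. In infarcts 1, 2 and 3, 75, 70 and 61 segments had at least 1 count, and 40, 29 and 29 had at least 10. In contralateral samples 1, 2 and 3, 4, 2 and 14 segments had a count, and none exceeded 3. Over all 6 libraries 92 of the 185 segments were at 0. Pseudogenes, which have lost an intact reading frame or signal, held 4, 7 and 1 counts in infarcts 1 to 3, or 0.0492% of the infarct Ighv counts. Of the variable genes annotated without a defect, 27 had no count in any infarct. These 27 shared a median of 5.42% of their read-length windows with other segments, against 4.95% for the 93 detected ones.

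Across all genes, 25.7% of the 15554 tested were called higher in infarct and 20.9% lower by edgeR's quasi-likelihood test (Benjamini-Hochberg adjusted p under 0.05 and a log2 fold change beyond 1). For Ighv, 17 of 185 segments passed the filter on low counts, 16 were called higher and 0 lower. Those 17 passed only through the infarcts, so they had to differ, and the count is no support for the group as a whole. At an unadjusted p under 0.05 all 17 were past the threshold. The 168 segments left untested held 26.1%, 17.1% and 33.9% of the Ighv counts of infarcts 1, 2 and 3. In 17 of the 17 tested segments every infarct lay above every contralateral sample, where the share over all tested genes was 37.6%, and nothing is read from this because the filter chose those 17. The same held for 48 of all 185 segments.

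The 3 called segments with the smallest p had moderate counts, and only *Ighv1-39* had a similar count in each infarct. *Ighv1-39* had 68, 83 and 87 counts in infarcts 1 to 3 and 0, 0 and 1 in contralateral samples, or 5.82 ± 0.355 CPM (SD, n = 3) in infarcts. *Ighv1-53* had 317, 109 and 90 counts against 2, 0 and 1. *Ighv1-64* had 183, 48 and 136 counts against 0, 0 and 3. No infarct overlapped a contralateral sample in any of the 3. The edgeR log2 fold changes were 7.55 (SE 0.61, adjusted p = 4.68e-06), 7.45 (SE 0.93, adjusted p = 2.35e-04) and 6.90 (SE 0.96, adjusted p = 3.45e-04), in that order. With so few contralateral counts these fitted values depend on the prior count. The ratios of pooled rates were 264-fold (exact interval 47.0 to 10483), 191-fold (65.0 to 929) and 136-fold (46.1 to 662).

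**Figure D1:**
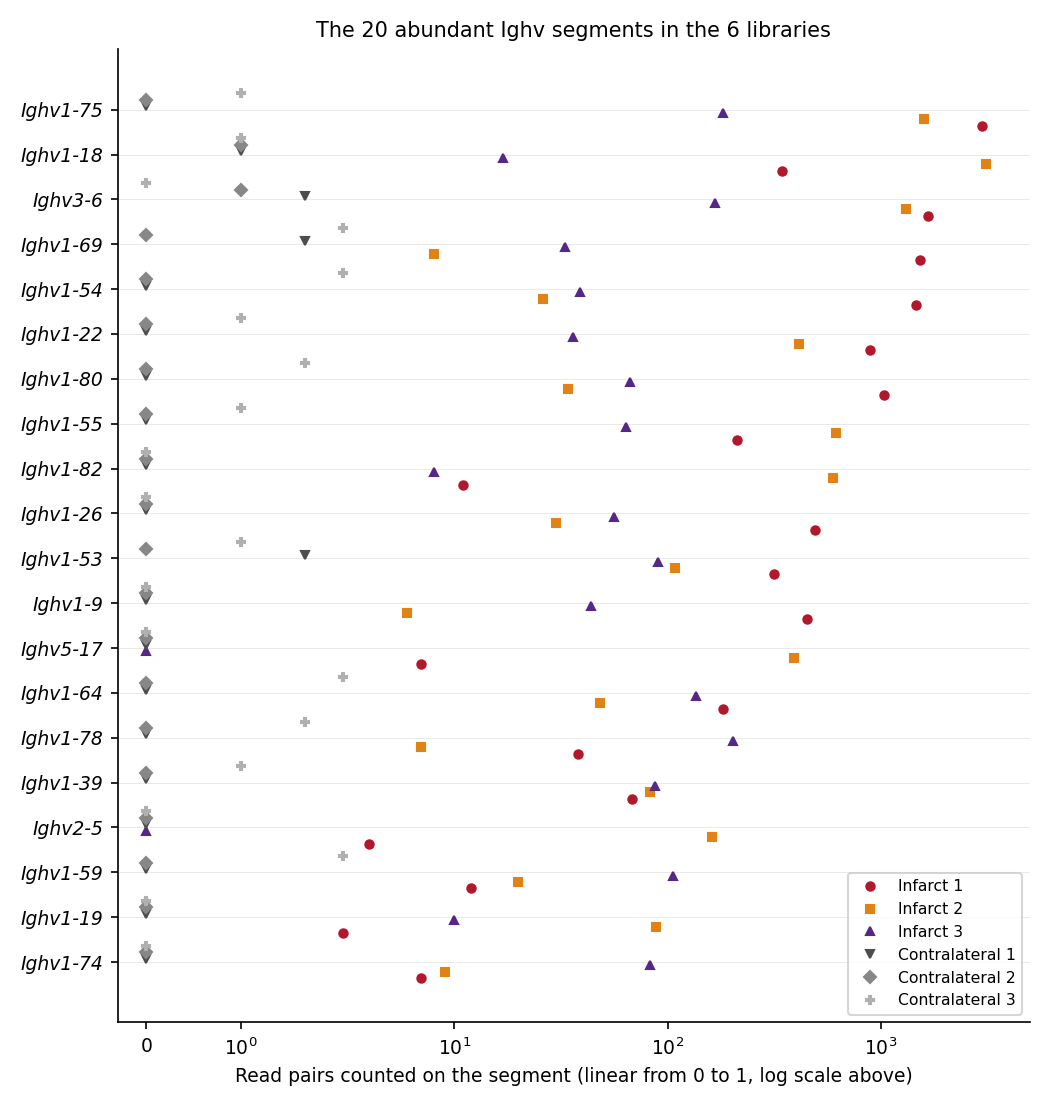
Read pairs counted on each of the 20 segments that were among the 10 most abundant of an infarct, with 1 marker for each of the 3 infarct and 3 contralateral libraries, on an axis that is linear from 0 to 1 and log above. Contralateral markers lie at 0 to 3, and the leading infarct differs between segments, as for *Ighv1-18* with 3115 counts in infarct 2 and *Ighv1-78* with 203 in infarct 3.

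The segments with the most counts had larger standard errors and larger differences between infarcts. *Ighv1-75* had 2988, 1600 and 182 counts in infarcts 1 to 3 and 0, 0 and 1 in contralateral samples, with a log2 fold change of 11.95 (SE 1.95, edgeR adjusted p = 0.00269). *Ighv3-6*, from a smaller family, had 1664, 1318 and 167 counts against 2, 1 and 0, with a log2 fold change of 10.07 (SE 1.49, edgeR adjusted p = 0.00159). Both were high in all 3 infarcts. *Ighv1-18* had 343, 3115 and 17 counts against 1, 1 and 1 (log2 fold change 10.16, SE 2.76, edgeR adjusted p = 0.0222), and *Ighv1-54* had 1471, 26 and 39 counts against 0, 0 and 3 (9.06, SE 2.88, edgeR adjusted p = 0.0382). The calls of *Ighv1-18* and *Ighv1-54* were lost when single libraries were left out, the former without infarct 1 or any contralateral sample and the latter without infarct 3 or any contralateral sample. Both calls were also lost with no filter on low counts, and that of *Ighv1-54* with DESeq2. The pooled rates of *Ighv1-75* and *Ighv3-6* were 5297-fold (exact interval 950 to 209277) and 1166-fold (399 to 5656) those of contralateral cortex. *Ighv1-26*, named because it was the only tested segment that was not called, had 493, 30 and 56 counts against 0, 0 and 0 (edgeR adjusted p = 0.0518). It was called with DESeq2, with library totals, with a replicate block, and without infarct 1 or infarct 2.

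By family, Ighv1 took most of the counts. It held 82.1% (Wilson 81.5% to 82.8%), 77.0% (76.1% to 77.8%) and 83.6% (81.8% to 85.3%) of the Ighv counts of infarcts 1, 2 and 3, a mean of 80.9 ± 3.497% (SD, n = 3). The family has 93 members, 53 of them among the variable genes, which is 46.9% of those genes. Divided by exon length, the mean share was 80.7%. The Ighv1 share was thus above its part of the segments in all 3 infarcts. It also depended on the leading segments, and it fell to 77.0%, 65.0% and 81.5% when the most abundant segment of each library was set aside.

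Ighv3 was the only other family above 5% in any infarct. It held 13.9% (13.4% to 14.5%), 14.6% (13.9% to 15.3%) and 9.58% (8.30% to 11.03%), a mean of 12.7 ± 2.71% (SD, n = 3), and its 6 variable genes make up 5.31% of the total. *Ighv3-6* supplied 1664 of the 1878 Ighv3 counts of infarct 1, 1318 of 1324 in infarct 2 and 167 of 172 in infarct 3. The Ighv3 share was therefore a share of 1 segment in infarcts 2 and 3.

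The remaining families were uneven between infarcts. Ighv5, which lies near the J segments and has 10 variable genes, held 0.222%, 4.63% and 1.28%. The 4.63% of infarct 2 came mostly from *Ighv5-17*, with 7, 390 and 0 counts in infarcts 1 to 3. Ighv2 held 0.742%, 1.96% and 0.167%, and Ighv8 held 1.56%, 0.583% and 1.34%. Ighv6 held 0.994%, 0.110% and 0.947%. Infarct 3 had the highest share of the smaller families Ighv7 (0.0816%, 0.0990% and 0.445%), Ighv9 (0.0890%, 0.451% and 1.11%), Ighv10 (0.0297%, 0.0660% and 0.891%) and Ighv14 (0.156%, 0.0770% and 0.501%). Ighv4 had 27 counts in infarct 2 and 0 in the other infarcts. Ighv11 and Ighv16 had 0 counts in every library. In contralateral samples, Ighv1 accounted for 5, 1 and 24 of the 7, 2 and 24 counts and Ighv3 for 2, 1 and 0.

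**Figure D2:**
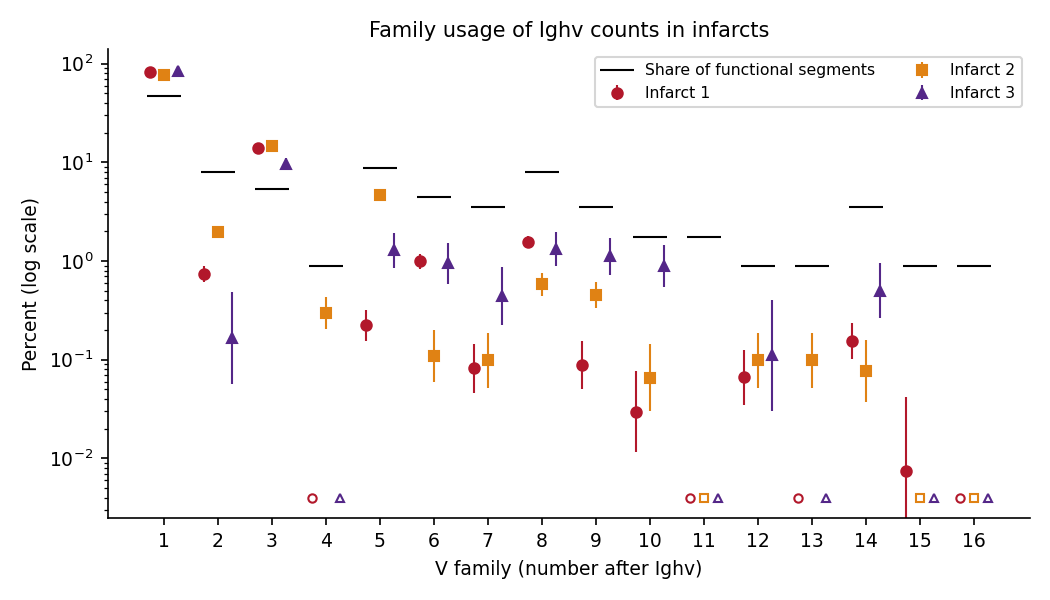
Percent of Ighv counts (log axis) by V family, with a marker for each of the 3 infarct libraries, 95% Wilson intervals as vertical lines, open markers along the base for 0 counts and a horizontal line at the family's percent of the variable genes. All 3 infarcts lie above that line for Ighv1 (77.0% to 83.6%) and Ighv3 (9.58% to 14.6%) and below it for every other family.

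Evenness differed between the infarcts. The effective number of segments, which is the exponential of the Shannon entropy and equals the number of segments if all were equally abundant, was 15.2, 9.17 and 25.5 in infarcts 1, 2 and 3. The 1 most abundant segment held 22.2% of the Ighv counts in infarct 1 (*Ighv1-75*, Wilson 21.5% to 22.9%), 34.3% in infarct 2 (*Ighv1-18*, 33.3% to 35.3%) and 11.3% in infarct 3 (*Ighv1-78*, 9.92% to 12.9%). Infarct 2 was thus the most concentrated and infarct 3 the most even, and the 3 intervals did not overlap. The 10 most abundant segments held 82.9%, 92.5% and 66.0%, and 4, 2 and 7 segments were enough to reach 50% of the counts.

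The order of evenness held at equal depth. After each library was thinned to 1796 Ighv counts, the total of infarct 3, the effective numbers were 15.0, 9.36 and 25.5. The number of segments with a count was then 50, 52 and 61, against 75, 70 and 61 before thinning. Infarct 3 held the fewest Ighv counts and had the most segments at equal depth.

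**Figure D3:**
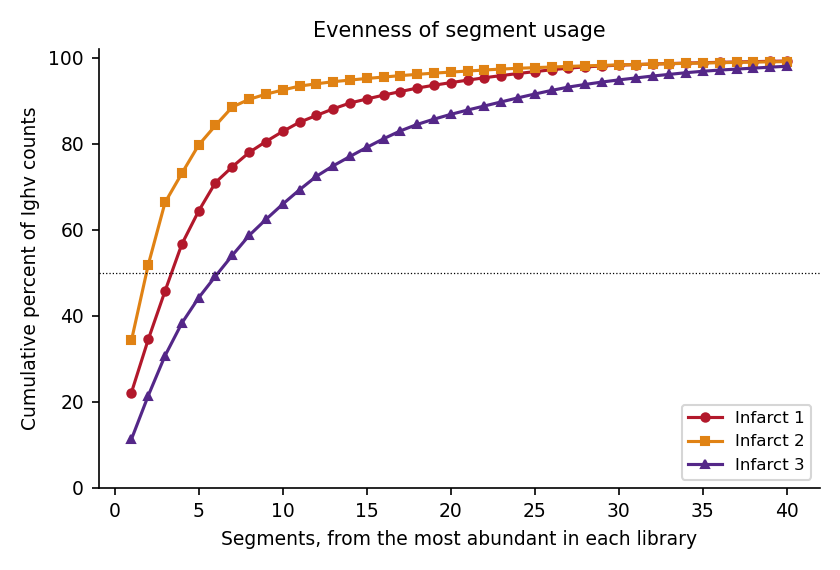
Cumulative percent of Ighv counts against the number of segments, taken from the most abundant in each library, with 1 line per infarct library and a dotted line at 50%. The line of infarct 2 rises fastest and reaches 92.5% at 10 segments, where infarct 1 reaches 82.9% and infarct 3 66.0%.

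Several abundant segments recurred. With at least 10 counts as the minimum, 17 segments were present in all 3 infarcts, 15 in 2 and 17 in 1, and no segment reached 10 counts in a contralateral sample. Thinned to 1796 Ighv counts per library, 8 segments reached 10 in all 3 infarcts. The 17 shared segments held 73.9%, 82.9% and 66.1% of the Ighv counts of infarcts 1, 2 and 3. Of the 17, 14 belong to Ighv1, and 1 each to Ighv3, Ighv8 and Ighv9.

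Of the 10 most abundant segments per infarct, *Ighv1-75*, *Ighv3-6* and *Ighv1-53* were in all 3 lists, 4 were in 2 lists and 13 in 1. The 4 were *Ighv1-18*, *Ighv1-22*, *Ighv1-80* and *Ighv1-55*. *Ighv1-75* and *Ighv3-6* together held 34.5%, 32.1% and 19.4% of the Ighv counts. They ranked 1 and 2 in infarct 1, and 2 and 3 in the other two, also after division by exon length. *Ighv1-75* exceeded *Ighv3-6* by 1.796-fold, 1.21-fold and 1.09-fold in counts.

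Other segments differed more between infarcts. *Ighv1-69* held 11.3% of infarct 1 with 1521 counts, against 8 and 33 counts in infarcts 2 and 3. *Ighv1-82* held 6.59% of infarct 2 with 599 counts, against 11 and 8 in infarcts 1 and 3. *Ighv1-78* led infarct 3 with 203 counts, against 38 and 7. *Ighv1-59*, also high in infarct 3, had 106 counts there and 12 and 20 elsewhere. *Ighv1-80* had 1038 counts in infarct 1, 34 in infarct 2 and 67 in infarct 3, and *Ighv1-55* had 212, 616 and 64. Among the remaining leaders of an infarct, *Ighv1-22* had 892, 413 and 36 counts, *Ighv1-26* 493, 30 and 56, and *Ighv1-9* 449, 6 and 44. *Ighv2-5* had 4, 162 and 0, *Ighv1-19* had 3, 88 and 10, and *Ighv1-74* had 7, 9 and 83. As shares, which take the different Ighv totals into account, *Ighv1-26* held 3.66%, 0.330% and 3.12% and *Ighv1-9* 3.33%, 0.0660% and 2.45%, so that infarct 2 was low and the other two were similar.

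The infarcts were compared in pairs over the segments with a count in either. The overlap, which sums the smaller share of each segment, was 45.3% for infarcts 1 and 2 (89 segments), 49.9% for 1 and 3 (84 segments) and 34.3% for 2 and 3 (78 segments). Spearman's rho across segments was 0.548, 0.619 and 0.454 in the same order, as a description only, since segments of 1 library share its depth and are not independent. Without *Ighv1-75* and *Ighv3-6* the overlap was 22.9%, 40.5% and 20.03%. The overlap of infarcts 1 and 3 fell least when this pair was set aside.

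**Figure D4:**
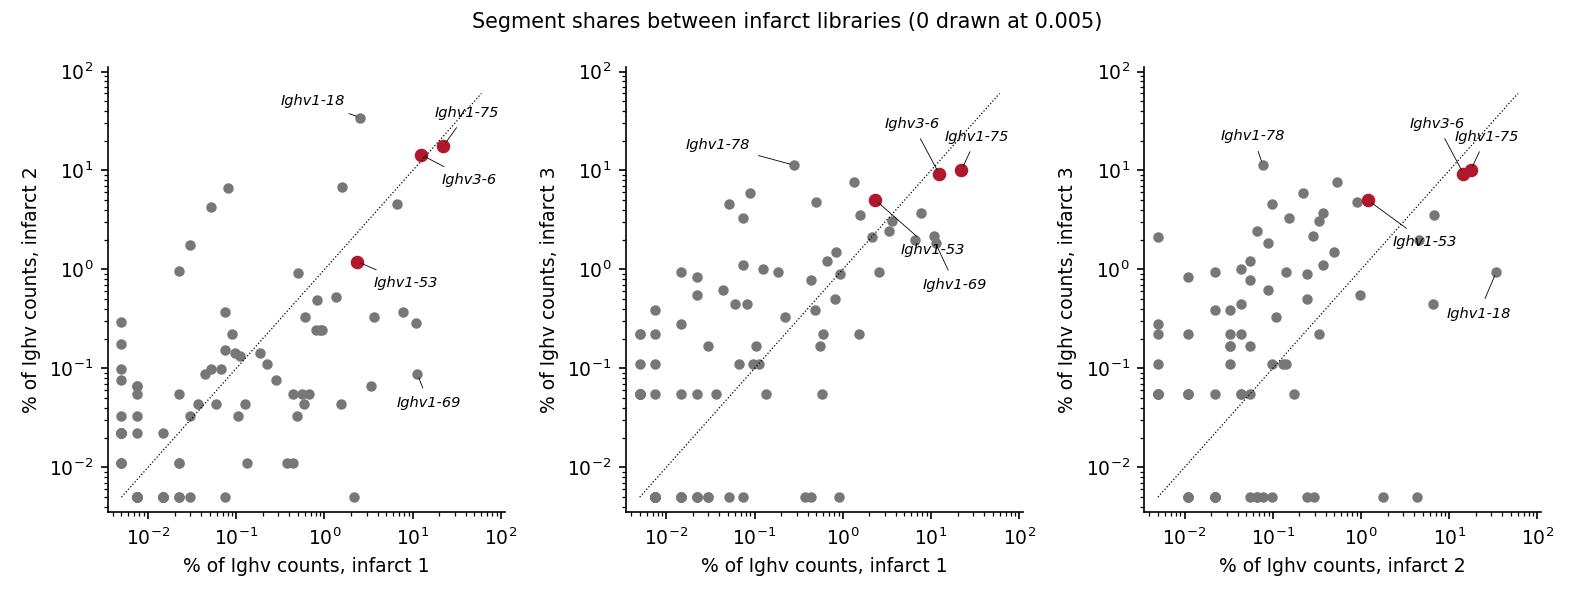
Percent of Ighv counts per segment in 1 infarct library against another, on log axes with 0 drawn at the edge, with 1 panel per pair of infarcts, 1 point per segment and a dotted line of equal shares. The red points are the 3 segments among the 10 most abundant of every infarct, and *Ighv1-18*, *Ighv1-69* and *Ighv1-78* lie far from the line.

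Along the locus the counts of infarcts 1 and 3 came mostly from segments far from the J end. The segments span 143.09 to 2579.8 kb from *Ighj1*, counted in the GENCODE M21 annotation, and were divided into 3 groups of 61, 62 and 62 by order. The group nearest the J segments, which has no Ighv1 member, held 13.7%, 22.04% and 12.9% of the Ighv counts of infarcts 1, 2 and 3. The farthest group, with 48 Ighv1 members and 41 of the 113 variable genes, held 63.3%, 35.9% and 64.3%. Infarct 2 differed, with 42.1% in the middle group, which contains *Ighv1-18*. The position that split the counts evenly lay at 1764 kb, 1253 kb and 1905 kb.

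**Figure D5:**
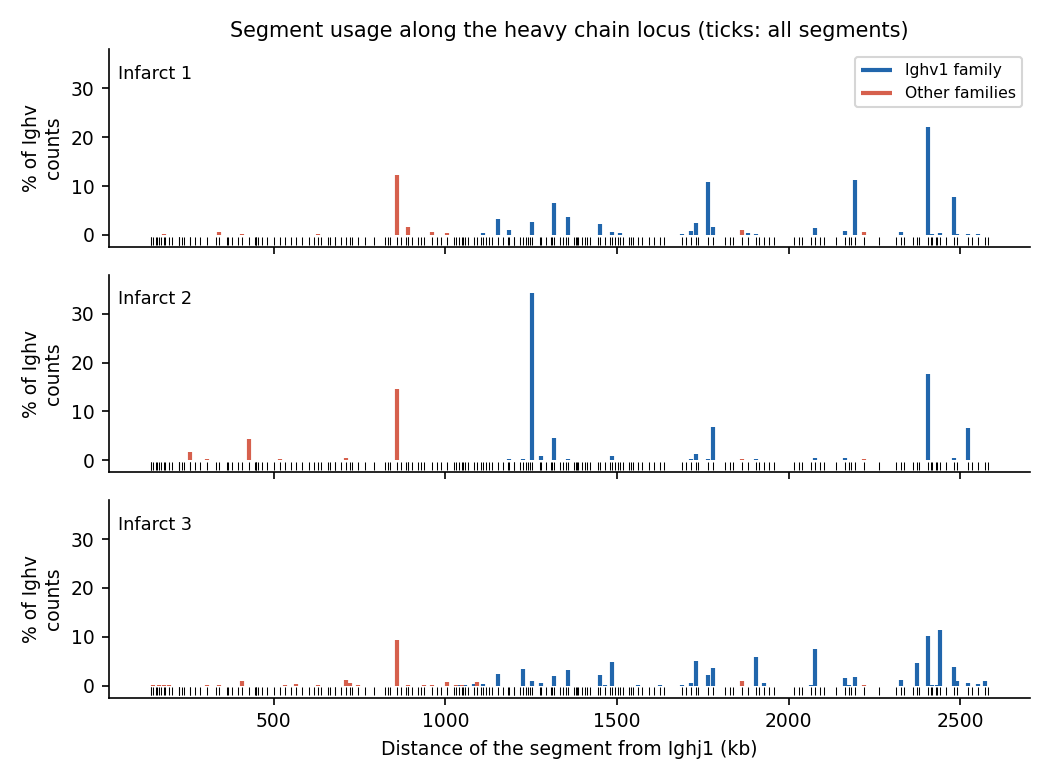
Percent of Ighv counts per segment against its distance from *Ighj1* in kb, with 1 panel per infarct library, blue bars for Ighv1, red bars for other families and a tick for every segment. *Ighv3-6* near 858 kb and *Ighv1-75* near 2404 kb stand out in each panel, and *Ighv1-18* near 1253 kb in infarct 2.

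Heavy chain constant region usage differed between infarcts. *Ighm*, the constant region of IgM, had 19500, 12165 and 1484 counts in infarcts 1 to 3 and 131, 171 and 150 in contralateral samples. *Ighg1*, of IgG1, had 91, 84 and 2545 counts against 0, 0 and 17. IgM thus led infarcts 1 and 2, with 79.3% and 75.2% of the heavy constant counts, while *Ighg1* held 48.8% and *Ighm* 28.5% in infarct 3. *Ighg2c* held 12.9%, 7.71% and 0.940%, *Ighg2b* 2.188%, 10.1% and 1.65%, and *Igha*, of IgA, 2.05%, 3.903% and 9.88%. Of the 8 heavy constant genes 7 were tested and all 7 were called higher in infarcts. *Igha* had 505, 631 and 515 counts in infarcts and 0 in the contralateral samples, with a log2 fold change of 12.19 (SE 0.44, edgeR adjusted p = 4.20e-07). Bulk counts do not tell which V segment was joined to which constant region.

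The ratio of heavy to light variable counts differed between infarcts. Kappa variable segments had 17272, 5367 and 2496 counts in infarcts 1 to 3, and lambda segments 329, 230 and 244, so Ighv counts per light variable count were 0.766, 1.62 and 0.655. Infarct 2, which had the most concentrated Ighv usage, also had the highest ratio. The 4 J segments had at most 24 counts in an infarct and none passed the filter.

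In contralateral cortex the Ighv counts were few and fell on segments also seen in infarcts. Contralateral sample 3 held 24 counts over 14 segments, with 3 each on *Ighv1-69*, *Ighv1-54*, *Ighv1-64* and *Ighv1-59*. In contralateral sample 1, 7 of 7 counts lay in the 10 leading segments of infarct 1, 5 in those of infarct 2 and 4 in those of infarct 3. In contralateral sample 2, 2 of 2 counts lay in the leaders of infarcts 1 and 2. Of the 24 counts of sample 3, 14 (58.3%) lay in the 10 leading segments of infarct 3, 12 in those of infarct 1 and 5 (20.8%) in those of infarct 2. Contralateral sample 3 also held the 17 *Ighg1* counts. The source of these counts was not tested.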

How the data were processed

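RNA of infarcts and contralateral cortices was made into TruSeq stranded mRNA libraries, sequenced as paired 75-base reads. Per the study's methods and the submitters' processing notes, the authors used bcl2fastq 2.19, Trimmomatic 0.32, STAR 2.5.2b on GRCm38 and HTSeq, and deposited raw read counts per gene. The HTSeq version, annotation and strand setting are not given in the sources used here. HTSeq drops reads that align to several places, and these made up 14.1% to 18.2% of tallied reads, which can lower near-identical segments. The 5 summary entries per table stayed out of all totals.

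Groups came from the sample labels. Genes with low counts were filtered (filterByExpr), libraries were scaled by TMM, and edgeR 4.0.16 quasi-likelihood tests with Benjamini-Hochberg adjustment were run in R 4.3.3 over all genes, with region as the only term. DESeq2 1.42.0 was an alternative. The test was tested on simulated data. Those data gave every gene the same dispersion, so they do not cover segments that differ widely between infarcts. Shares, evenness and overlaps were computed in Python 3.11.15 with pandas 2.3.3 and SciPy 1.17.1, and plotted with matplotlib 3.10.9. The identifiers were matched to GENCODE M21 (45229 matched, 849 did not).

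Members and lists were chosen with earlier results of these data known. Named were the 5 segments with the most counts in each infarct, those in the 10 most abundant of all 3, the 3 called with the smallest p, and those leading each contralateral sample. The other leaders of an infarct, *Ighv1-26* and the 4 segments with shared windows were named after their values were seen. RefSeq promoters matched 0 of the members. Alternatives covered the tool, scaling, filter, fold threshold, depth, annotation, exon length, count minimum, list length and each library left out.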

Additional observations from a re-analysis of the deposited data

How the results depend on the processing

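Of 86 alternative values, 75 stayed within 1.5 times (counts of genes or segments) or 1 SD of the 3 infarcts (other values), and 11 moved. For the summed level, Ighv1 share, effective number and top share, leaving out 1 of 3 infarcts cannot shift the mean by 1 SD. Those values therefore had to stay within it, and their ranges below are the better guide. The 16 Ighv segments called became 39 by DESeq2 (49 tested, 14 of the 16 among them, without *Ighv1-54* and *Ighv1-80*; 136 members had no adjusted p), 29 with no filter on low counts (93 tested, 12 of the 16 among them, without *Ighv1-18*, *Ighv1-54*, *Ighv1-80* and *Ighv8-8*) and 0 when 10 counts were required in every library, since no segment was then tested. Leaving out each library in turn gave 17 to 23 called segments, 4028 to 4174 genes higher (main 3999) and 3145 to 3608 lower (main 3256). Main calls were lost without infarct 1 (*Ighv1-18*), infarct 3 (*Ighv1-54*) or any contralateral sample (*Ighv1-18*, *Ighv1-54*, *Ighv1-80*), and *Ighv1-22* without contralateral sample 3. Scaling by library totals shifted the median over all genes by 0.20 (log2) and called 17 segments.

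The mean Ighv1 share moved to 74.5% without the leading segment of each library (main 80.9%), and leaving out infarcts gave 79.5% to 82.9%. The summed level ranged from 395 to 871 CPM, the effective number from 12.2 to 20.3 and the top share from 16.7% to 28.2%. Segments in all infarcts (17) were 27 at 5 counts, 11 at 20 counts, 8 after thinning and 18 to 24 without an infarct. Segments in several top lists (7) were 2 with 5 per library, 19 with 20 and 4 to 5 without an infarct.

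A fit with the replicate number as a block called 17 segments, with *Ighv1-26* gained, and 3945 genes higher and 3222 lower. The same-numbered samples correlated at -0.19, 0.10 and 0.0011 in their deviations from group means, and differently numbered ones at -0.24 to 0.18. With 3 samples per group these values cannot decide whether the samples are paired. The labels do not state whether same-numbered samples came from 1 mouse, so the main fit did not pair them. The 168 segments that were not tested include 92 at 0 in every library.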
